A study of Caenorhabditis elegans with 3 samples.

Results

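The 640 peaks described here are UNC-55 chromatin immunoprecipitation (ChIP-seq) peaks on the X chromosome of Caenorhabditis elegans whose summit lay near the start of a protein-coding gene. A peak of the optimal list, the peaks that passed the authors' reproducibility threshold between replicates, was a member when its summit fell between 2000 bp upstream and 500 bp downstream of an annotated protein-coding transcript start. They make up 640 of the 1128 optimal peaks on X, and another 4865 lay on the autosomes. The rest divide into 488 X peaks outside such windows (X distal peaks), 3490 promoter peaks on the autosomes and 1375 autosomal distal peaks. Within the optimal list membership rests on position alone, so base composition was not used to choose it. Every member had, however, passed the authors' threshold, which rests on agreement between these same replicates. Signal, replicate ranks and overlap with the replicates are therefore not independent of the choice.

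The study holds 1 group, sampled as biological replicates 1, 2 and 3, of whole, mixed-sex larvae at the L2 stage. All are of strain NC1639, whose integrated transgene wdIs49 places the ttr-39 promoter, active in GABA motor neurons, before UNC-55a fused to GFP, with dpy-20(+) as a marker. The protein was thus made from a transgene promoter in few cells, while chromatin came from the whole animal, so no peak can be assigned to a cell type. Labels and notes differ on the tag, eGFP-unc-55 in one place and, for replicate 3, a C-terminal GFP-FLAG tag in another, and the stated preparation differs too: a 150-350 bp size range for replicates 1 and 2, microtip sonication for replicate 3. No wild-type or untagged sample was analysed here, and all p-values measure only the spread between these 3 samples.

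UNC-55 is a nuclear receptor related to the COUP-TF proteins, and such factors bind DNA through zinc fingers, often at copies of the core AGGTCA. In ventral D motor neurons it is known to hold back the synaptic remodelling that dorsal D neurons undergo. The X chromosome of C. elegans carries few genes used in the germline, many genes of neurons and muscle, and in hermaphrodites is bound by a dosage compensation complex that lowers transcription from both copies. A promoter peak reports that DNA near a start was recovered with the tagged protein, not that the gene is regulated by it.

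Sequences at some of the summits show the words that were frequent among the members. The first set is the summit with 50 bp on either side for the 4 strongest members, on the + strand of WBcel235 (ce11). Capitals mark the GA repeat GAGAGA, the core AGGTCA or any of the 10 CG-bearing hexamers that led the ranking described further on, on either strand. The peaks belong to fbxb-58, an F-box gene (chrX:1627108-1627208), rpl-11.2, for a protein of the large ribosomal subunit (chrX:2242939-2243039), puf-9, for a Pumilio-family RNA-binding protein (chrX:5841271-5841371), and nspc-17, for a nematode-specific peptide (chrX:14525954-14526054). All 4 summits were intergenic.
fbxb-58: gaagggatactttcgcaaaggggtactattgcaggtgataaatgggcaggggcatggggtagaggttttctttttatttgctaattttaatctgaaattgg
rpl-11.2: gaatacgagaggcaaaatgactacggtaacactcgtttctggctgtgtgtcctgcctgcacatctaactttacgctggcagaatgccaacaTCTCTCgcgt
puf-9: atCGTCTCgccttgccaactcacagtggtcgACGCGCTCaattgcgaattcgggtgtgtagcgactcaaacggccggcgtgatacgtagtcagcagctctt
nspc-17: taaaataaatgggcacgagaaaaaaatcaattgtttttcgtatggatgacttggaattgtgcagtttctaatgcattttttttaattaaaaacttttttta
The fbxb-58 and nspc-17 windows held none of these words, the nspc-17 window had a GC content of 24.8%, and the puf-9 window had 56.4% and 14 capital bases.

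The second set shows the strongest peaks at 3 lists of genes described below, and the strongest member with AGGTCA. They lie at hsp-3, for the endoplasmic reticulum chaperone BiP (chrX:6092127-6092227), unc-18, for the Munc18 protein of synaptic vesicle release (chrX:7682539-7682639), his-24, for a linker histone (chrX:14490003-14490103), and F17E5.2 (chrX:12393958-12394058). All are intergenic and given on the + strand with the same capitals.
hsp-3: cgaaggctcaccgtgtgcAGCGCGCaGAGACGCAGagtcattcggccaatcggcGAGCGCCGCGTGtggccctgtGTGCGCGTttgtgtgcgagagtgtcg
unc-18: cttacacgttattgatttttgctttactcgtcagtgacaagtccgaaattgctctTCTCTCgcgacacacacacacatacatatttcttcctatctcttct
his-24: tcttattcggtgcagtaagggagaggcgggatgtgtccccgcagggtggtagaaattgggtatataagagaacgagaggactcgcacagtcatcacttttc
F17E5.2: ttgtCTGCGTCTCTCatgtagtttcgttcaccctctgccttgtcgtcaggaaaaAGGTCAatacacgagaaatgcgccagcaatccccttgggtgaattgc
The hsp-3 window had the highest GC content of the sequences shown, 66.3%, and 36 of its bases lay in marked words. No member held AGGTCA at 2 or more places within 50 bp of its summit, so no such sequence is shown.

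The third set, chosen after the values were seen, gives the strongest members with a tRNA gene within 100 bp of the summit. They lie at M02F4.2 (chrX:3036054-3036154) and at sor-3, for a protein of Polycomb-type repression (chrX:353323-353423).
M02F4.2: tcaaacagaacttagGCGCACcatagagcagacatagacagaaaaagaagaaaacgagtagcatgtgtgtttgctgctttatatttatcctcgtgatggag
sor-3: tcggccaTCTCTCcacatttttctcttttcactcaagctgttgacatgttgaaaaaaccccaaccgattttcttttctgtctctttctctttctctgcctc
Each had a GC content near 41% and 1 marked word.

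The members spanned nearly the whole range of the optimal list. Their deposited signal, the value written for each peak by the authors' peak caller, ran from 45.8 to 742 with a median of 110, against medians of 79.8 for X distal and 127 for autosomal promoter peaks. Ranks in the optimal list went from 15 to 5990. The members were 10.7% of all optimal peaks. Among the 100 strongest stood 8 members and 13 X distal peaks, among the 500 strongest 45 members and 32 X distal peaks, and among the 1000 strongest 90 members and 54 X distal peaks. The signal is the authors' own and is used here only to rank and describe peaks within a list.

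The strongest members overlapped a peak in every replicate, which selection for reproducibility between the replicates makes likely. For a single peak, the rank given is that of the strongest replicate peak overlapping it by at least 1 bp, with 1 the strongest of the replicate's list. The fbxb-58 peak (signal 742, 979 bp upstream, X 1626879 to 1627417) ranked 16, 14 and 20 in replicates 1, 2 and 3. The rpl-11.2 peak (signal 590, 371 bp upstream) ranked 35, 52 and 40, and the puf-9 peak (signal 576, 271 bp upstream), also in the window of dct-11, ranked 30, 50 and 89. These peaks kept similar places in all 3 lists. The nspc-17 peak (signal 573, 823 bp upstream), the widest member at 1197 bp, ranked 54, 32 and 9.

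The next 11 were at genes of varied function. Signals were 562 at sms-2, for a sphingomyelin synthase, 534 at F20B6.9, 499 at ins-39, for an insulin-like peptide, 463 at ZC506.1 and 427 at spc-1, for alpha spectrin of the membrane skeleton. They were 425 at serp-1.1, 416 at hsp-3, 397 at zfp-3, a zinc finger gene, 382 at M02F4.2, 379 at dpy-23, for the medium subunit of the clathrin adaptor AP2, and 375 at epg-7, an autophagy gene. All 15 overlapped a peak of each replicate, within ranks 16 to 237 in replicate 1, 14 to 712 in replicate 2 and 9 to 481 in replicate 3. The lowest of these ranks was the replicate 2 peak at hsp-3, which ranked 70 and 146 in replicates 1 and 3.

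Across all members, 638, 635 and 628 of 640 overlapped a peak of replicates 1, 2 and 3, and 621 (97.03%) did so in all 3. The optimal list was selected for reproducibility between these replicates, whose lists hold many more peaks, so high overlap was built in. The shares were 99.7%, 99.2% and 98.1% of members and 99.2%, 99.6% and 94.9% of X distal peaks. Autosomal promoter peaks had 99.3%, 99.2% and 97.5%. The 19 without an overlap in 1 replicate were weak, with signals no higher than 88.2; 12 of them lacked it in replicate 3. A stricter rule, that the replicate peak cover at least 50% of the optimal peak, was met by 618, 601 and 591 members. These were 96.6%, 93.9% and 92.3%, against 96.5%, 94.5% and 87.9% of X distal and 96.6%, 92.8% and 91.5% of autosomal promoter peaks. The 50% rule can miss a wide peak that is present. The bet-2 interval (748 bp, 2 summits, signals 318 and 89.9), at a bromodomain gene, was covered over 53.5%, 39.3% and 35.96% of its length in replicates 1, 2 and 3. By this rule 8 members (1.25%) were covered in a single replicate, as were 1.23% of X distal and 1.32% of autosomal promoter peaks. The 8 were the bet-2 pair and those at unc-115, ZK1193.2, C24A3.2, sad-1, ftt-2 and grk-1. Of these, the peak at grk-1, for a G protein-coupled receptor kinase, had no overlap at all in replicate 2.

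**Figure D1:**
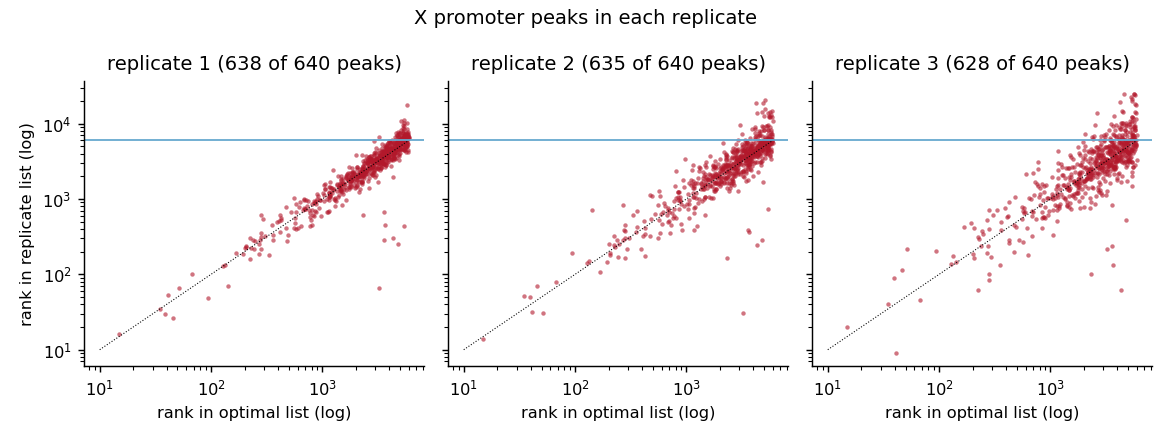
Rank of each X promoter peak in a replicate's list (vertical, log axis) against its rank in the optimal list (horizontal, log axis), 1 panel per replicate, with the strongest overlapping peak used; the dotted line marks equal ranks and the blue line the number of strongest peaks compared. The points follow the line most closely in replicate 1, and members without an overlapping peak (2, 5 and 12 of 640) are not drawn.

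Each replicate's list was cut to its strongest peaks, as many as the optimal list holds. With the 50% rule, 86.9%, 84.2% and 77.5% of the members had a counterpart there in replicates 1, 2 and 3. In X distal peaks the shares were 80.3%, 72.7% and 62.7%. The members lay above them in each replicate, 82.9% ± 4.83 against 71.9% ± 8.84 (SD, n = 3). The difference was 10.9 percentage points (exact sign-flip test, two-sided, p = 0.25, adjusted p = 0.286). Both groups had passed the authors' threshold on these same replicates, so the test is not independent of that choice. Median signal was 110 in members and 79.8 in X distal peaks, and its part in the difference was not tested. The difference was 3.87 points when lists were restricted to their stronger 50%. With 3 replicates this test cannot give less than 0.25, so no comparison here can pass 0.05, and the adjustment (Benjamini-Hochberg) covers 16 comparisons. Against autosomal promoter peaks (83.2% ± 5.33) the difference was -0.325 points, with 2 of 3 replicates in that direction (exact p = 0.75), and its sign changed with the overlap rule and the window. Members matched in the strongest peaks of all 3 replicates numbered 392 (61.25%), against 56.5% of all optimal peaks, 61.1% of autosomal promoter peaks and 43.2% of X distal ones.

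The median member stood at the 88.4th ± 1.15 percentile of signal in a replicate's list, against 84.5 ± 2.16 for X distal and 89.8 ± 1.25 for autosomal promoter peaks (SD, n = 3). Differences were 3.94 above X distal and 1.38 below autosomal promoter peaks (difference -1.38), each in 3 of 3 replicates (exact p = 0.25, adjusted p = 0.286). Percentiles were always taken in the whole replicate lists. With only the optimal list restricted to its stronger 50%, the difference from X distal peaks was 0.20. It was no longer in the same direction in all replicates (exact p = 0.5), and the difference from autosomal promoter peaks was -0.751. As the same replicates chose the optimal list, these percentiles are not independent of that choice. Spearman correlations of rank between replicates, across members, were 0.751 for replicates 1 and 2 (582 peaks), 0.679 for 1 and 3 (569 peaks) and 0.639 for 2 and 3 (557 peaks). Autosomal promoter peaks gave 0.805, 0.768 and 0.737. These describe peaks of shared libraries, which are not independent.

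Fewer X peaks lay at promoters than autosomal peaks did. In these strongest peaks of replicates 1, 2 and 3, 58.5%, 59.9% and 59.2% of X peaks were in promoter windows, against 71.6%, 72.3% and 71.5% of autosomal peaks. The difference was -12.6 percentage points (exact p = 0.25, adjusted p = 0.286), larger than the spread between replicates. Promoter windows covered 40.4% of X and 47.8% of the autosomes, with 154 coding genes per Mb on X and 209 on the autosomes. The annotation thus differed in the same direction as the peaks, and its part in the gap was not tested. Genes with a peak in their window, 625 of 2731 on X, made up 22.9%, against 25.5% of all coding genes. In the replicates the shares were 23.7% ± 0.480 on X and 26.2% ± 0.164 on the autosomes together (SD, n = 3). The difference was -2.51 points (exact sign-flip test, p = 0.25, adjusted p = 0.286), and -4.60 points in the stronger 50% of each list. By single chromosome the mean share was 35.8% on I, 24.7% on II, 38.9% on III, 24.5% on IV and 16.1% on V. X thus lay within the range of the autosomes.

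X summits lay farther from the nearest start. The median distance upstream was 354, 330 and 356 bp on X in replicates 1, 2 and 3, and 230, 230 and 220 bp on the autosomes. Every X value was above every autosomal one, 347 ± 14.5 against 227 ± 5.77 bp (SD, n = 3), a difference of 120 bp (exact p = 0.25, adjusted p = 0.286), and 73.3 bp with the narrower window of 1000 bp before to 200 bp after a start. The optimal list showed the same shape. The 100 bp from 200 to 100 bp upstream was the fullest bin in both groups, with 16.1% of members and 22.3% of autosomal promoter peaks. Summits over 1000 bp upstream made up 23.1% of members and 16.9% of autosomal promoter peaks. Where a window held several starts, the nearest was used. Windows with starts on both strands made up 13.2% of X and 34.5% of autosomal promoter peaks in the replicates. The part of this in the distance was not tested.

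**Figure D2:**
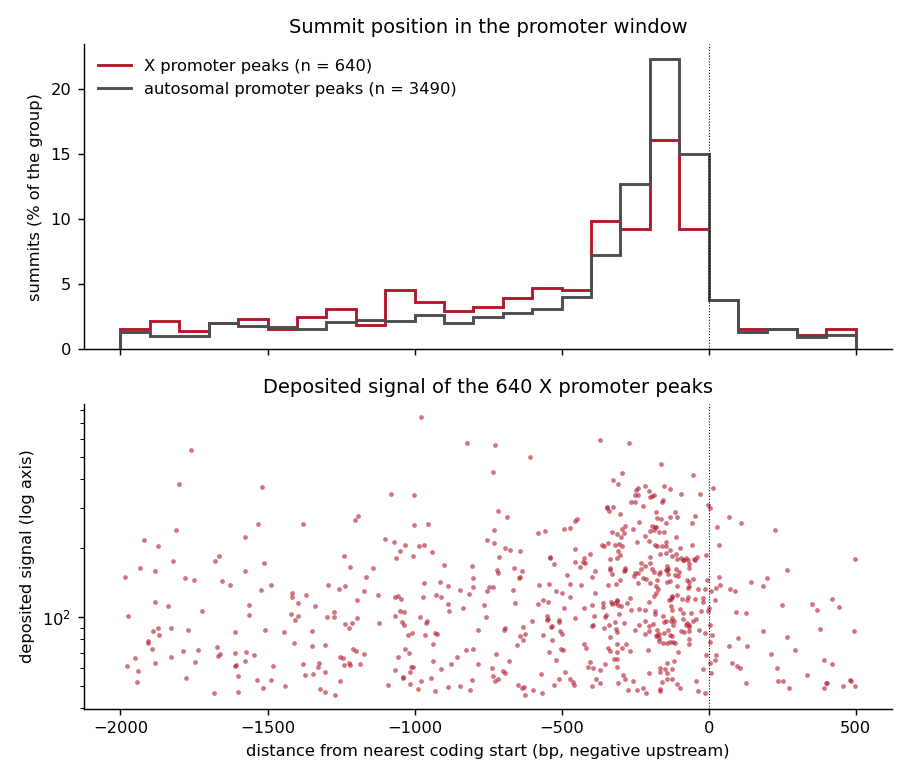
Top, share of summits (%) in 100 bp bins of distance from the nearest coding start (bp, negative upstream) for X promoter and autosomal promoter peaks of the optimal list; bottom, deposited signal (log axis) of each X promoter peak at its distance. Both groups peak at 200 to 100 bp upstream, with 16.1% of X and 22.3% of autosomal summits there.

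Signal and base composition changed with distance. Members 1 to 250 bp upstream (195 peaks) had a median signal of 136 and a mean GC content within 50 bp of the summit of 48.6%. Those more than 500 and up to 1000 bp upstream (118 peaks) had 99.0 and 45.2%, and those over 1500 bp upstream (61 peaks) 87.6 and 43.0%. The 61 members at or downstream of the start were also low, at 87.2 and 44.2%. By annotation 463 members (72.3%) were intergenic, 20.2% intronic, 40 in UTRs and 8 in coding exons, close to autosomal promoter peaks (72.4% intergenic, 19.3% intronic).

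The ends of the window divided similar peaks. Just inside 2000 bp were the peaks at dyn-1, for dynamin (1985 bp, signal 149), and dgk-1, for diacylglycerol kinase (1979 bp, 61.3), and just outside those at rgs-6 (2001 bp, 57.9) and abl-1, for the Abl kinase (2001 bp, 47.4). Downstream, unc-58 (498 bp, 180) and npr-16 (496 bp, 49.98) were inside, and C02C6.14 (527 bp, 46.02) and a peak of nfki-1 (586 bp, 145) outside. The values overlapped across both ends.

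Shared promoters were less common on X. Windows holding the starts of genes on both strands accounted for 13.4%, 12.6% and 13.5% of X promoter peaks in replicates 1, 2 and 3, against 34.7%, 34.5% and 34.3% on the autosomes. The difference, -21.3 percentage points, was larger than the SD of either group (0.515 on X, 0.164 on the autosomes; exact p = 0.25, adjusted p = 0.286). Of the bases in promoter windows, 8.06% on X and 16.6% on the autosomes belonged to windows of both strands, so the annotation differed in the same direction. Correspondingly, 537 members lay in the window of 1 gene, 100 of 2 genes and 3 of 3 genes. Both-strand windows were more frequent among strong members, 23.4% of the 128 strongest and 4.69% of the 128 weakest.

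tRNA genes stood beside a larger share of X promoter peaks than of autosomal ones. A tRNA gene lay within 100 bp of 34 member summits (5.31%), against 10.04% of X distal and 1.52% of autosomal promoter summits. In replicates 1, 2 and 3 the shares were 5.50%, 4.98% and 4.71% on X and 1.52%, 1.396% and 1.32% on the autosomes (difference 3.65 points, exact p = 0.25, adjusted p = 0.286). It was 5.48 points in the stronger 50% of each list and 2.01 with the narrower window. X holds 276 tRNA genes, 45.1% of those on the nuclear chromosomes, in 17.7% of their length; the part of that density in the difference was not tested. These members had a median signal of 139, against 107 for the other 606, and a median distance of 866.5 bp upstream, against 327.5 bp. The strongest were those at M02F4.2 (signal 382, ranks 185, 144 and 481), where 2 tRNA genes lie, and sor-3 (359, ranks 220, 172 and 380), followed by lact-7 (277), C28G1.2 (273) and srd-43 (264). Several listed genes below have such a peak, at unc-58, lev-9, ajm-1 and egl-17, and which gene such a peak belongs to was not tested.

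**Figure D3:**
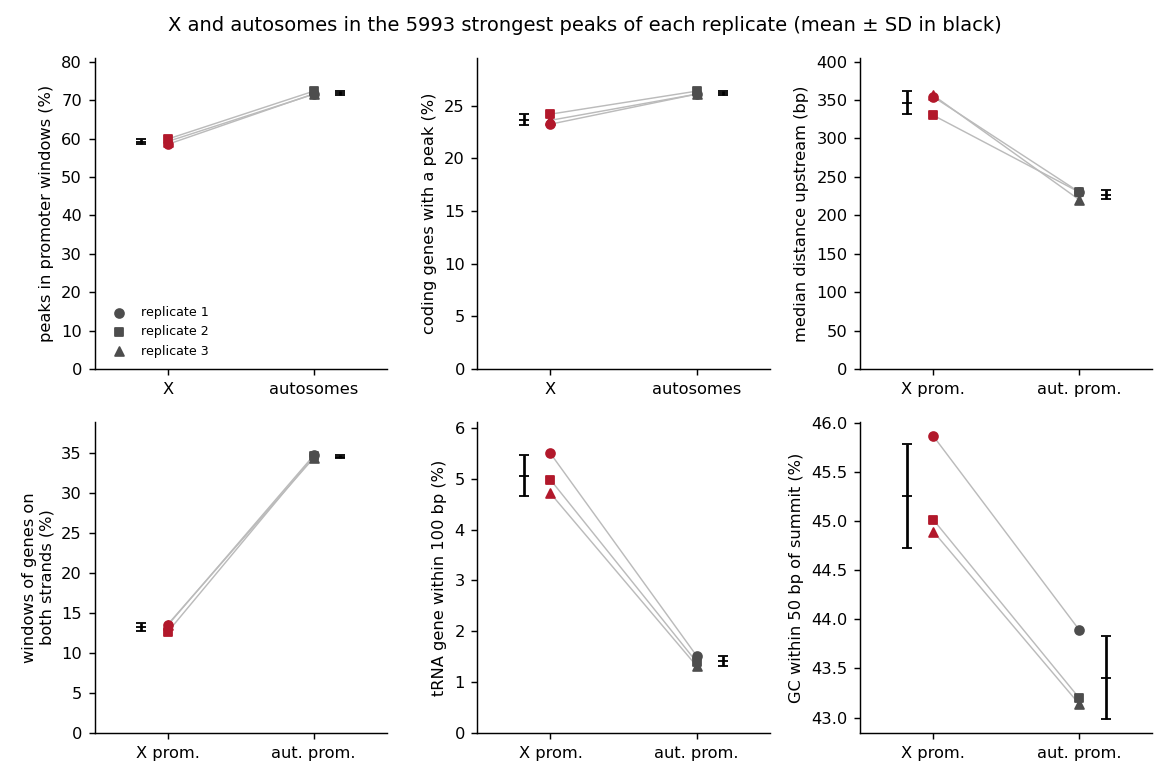
Values of X (red, left) and autosomes (grey, right) in the strongest peaks of each replicate, joined by replicate, with mean ± SD (n = 3) in black; all axes start at 0 except that of GC content. In every panel the 3 replicates moved in the same direction, and each exact p is 0.25, the smallest possible.

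GC content was high at member summits, over a wide stretch. Within 50 bp it averaged 45.9% in members, 41.1% in X distal and 43.9% in autosomal promoter peaks of the optimal list. In each replicate's own strongest peaks, X promoter peaks averaged 45.9%, 45.0% and 44.9% in replicates 1, 2 and 3. Autosomal promoter peaks had 43.9%, 43.2% and 43.1% (difference 1.85 points, exact p = 0.25, adjusted p = 0.286). X distal peaks of the same replicate lists had 41.5%, 40.5% and 40.9% (difference 4.31, exact p = 0.25, adjusted p = 0.286). The whole of X had 35.2% and the autosomes 35.5%, but windows of 250 bp upstream to 50 bp downstream of coding starts had 36.8% on X and 35.2% on the autosomes, so starts differed in the same direction as the peaks. The part of this in the peak difference was not tested. The difference from autosomal promoter peaks was 3.02 points in the stronger 50% of each list. In the central 25 bp X and autosomal promoter peaks differed by less than the replicate SD, 46.7% ± 0.139 and 46.6% ± 0.494 (SD, n = 3; exact p = 0.75). Between 51 and 100 bp from the summit, by contrast, X promoter peaks had 41.95%, 41.2% and 41.0%, and autosomal ones 36.7%, 36.3% and 36.3%. That difference was 4.98 points, larger than the spread between replicates (exact p = 0.25, adjusted p = 0.286). It was 3.69 points among windows of genes on 1 strand alone (41.4% ± 0.451 against 37.7% ± 0.318; exact p = 0.25, adjusted p = 0.286). The raised shoulder was not particular to the members. In 25 bp windows 75 bp left and right of optimal-list summits, X distal peaks had 40.3% and 40.1%. Members had 42.8% and 41.7% there, and autosomal promoter peaks 36.7% and 36.5%. Median peak width was 336 bp in members and X distal peaks and 258 bp in autosomal promoter peaks, and its part was not tested. The centre and shoulder windows were chosen after the profile was seen.

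**Figure D4:**
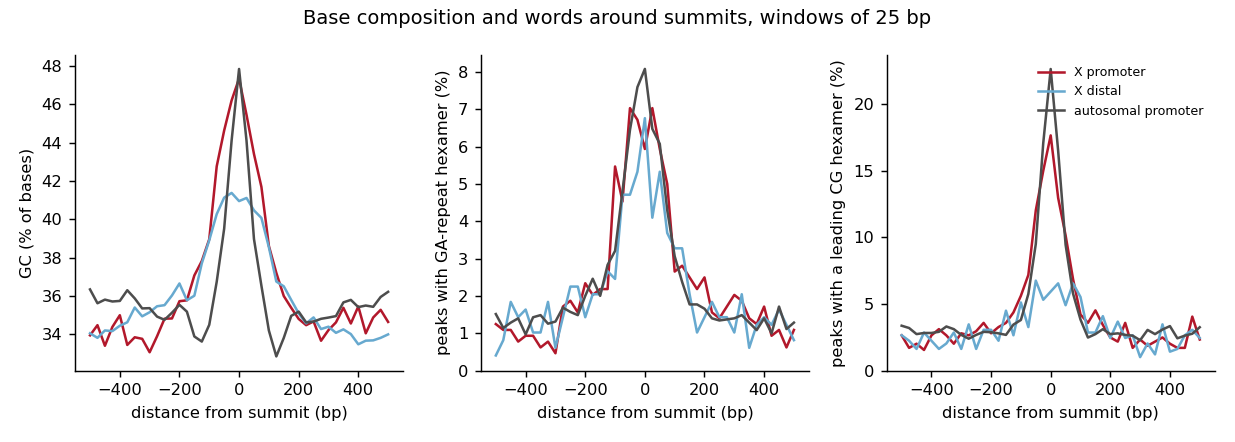
GC content (%), share of peaks with the GA-repeat hexamer (%) and share with any of the 10 leading CG hexamers (%) in 25 bp windows at distances of up to 500 bp from the summit, for X promoter, X distal and autosomal promoter peaks of the optimal list. X promoter and autosomal promoter peaks reach a similar GC content at the summit, and the X promoter curve is wider. At 75 bp from the summit both X groups lie above autosomal promoter peaks.

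GC content also went with signal. From the 128 strongest to the 128 weakest members, in groups of 128, mean GC content was 50.1%, 48.04%, 45.99%, 44.96% and 40.6%, and the share of intergenic summits 85.2%, 77.3%, 75.8%, 64.8% and 58.6%. Recovery of GC-rich DNA in library preparation was not tested, and the control reads were not analysed here.

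The core bound by many nuclear receptors was scarce at the summits. AGGTCA, searched on both strands within 50 bp of the summit, was present in 8 of 640 members (1.25%), and in 3.91% and 3.28% of equal flanks 300 bp to its left and right. It was in 2.82% of the 4114 windows lying 150 to 50 bp upstream of X coding starts. Autosomal promoter summits held it in 1.23% and X distal ones in 0.820%. AT-rich words were also less frequent at the centre: TATAAA was in 5.31% of member summits and in 13.9% and 13.4% of flanks, and GATAAG, bound by GATA factors, in 2.03% against 5% and 4.84%. Absence of these letters from the window says nothing of how the protein was held there.

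GA repeats were frequent. GAGAGA was in 178 member windows (27.8%), in 5.94% and 7.81% of the flanks and in 9.26% of X start windows. X distal summits held it in 21.1% and autosomal promoter summits in 25.96%. In the replicates the shares were 25.8% ± 0.570 on X and 24.6% ± 0.877 on the autosomes (SD, n = 3; difference 1.17 points, exact p = 0.25, adjusted p = 0.286). That difference moved with the settings, to 6.63 points in the stronger 50% of each list, 5.53 with the narrower window and 2.05 with 1 start per gene. Members upstream of 1 gene carried the word 51 times on the gene's strand and 99 times on the other, where it reads TCTCTC along the gene; X start windows had 77 and 310. The same skew was thus present, and larger, at starts in general.

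For each of 2080 hexamers, a word and its reverse complement counted together, the number of members with it at the summit was divided by that in the flanks (their mean), after adding 1 to each, and words in at least 5% of members were ordered by this ratio. The 10 that led, with ratios of 6.17 to 11, all held CG and several overlap each other. In order of ratio they were CACGCG in 43 members, ACGCGC in 86 members, AGCGCG in 55 members, GACGCA in 81 members and ACGCAG in 87 members. After them came GAGCGC in 72 members, CGCGGC in 32 members, CGTCTC in 103 members, GCGCGC in 40 members and GCGCAC in 70 members. They were picked on these windows, so their share in members, 316 of 640 (49.4%, flanks 10.5% and 9.53%), is a description. In windows not used to pick them, they were present in 24.4% of X distal summits, 56.9% of autosomal promoter summits and 15.1% of X start windows. ACGCAG alone was in 13.6% of members, 1.88% of flanks, 7.17% of X distal and 17.2% of autosomal promoter summits. In the replicates it was in 12.02% ± 1.57 of X and 16.002% ± 0.646 of autosomal promoter peaks (SD, n = 3; difference -3.98 points, exact p = 0.25, adjusted p = 0.286). In the stronger 50% of each list the difference was -0.759 points (exact p = 0.5).

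Members with a leading hexamer had a median signal of 133 and lay a median 257 bp upstream, and those without 92.4 and 521.5 bp. The share with one was 71.1% in the 128 strongest and 30.5% in the 128 weakest members, and 63.6% within 250 bp upstream of the start against 31.1% beyond 1500 bp. GC content moved with it, 50.1% with and 41.9% without a leading hexamer, and its part in the ranking was not tested. CGCAGGG, a stretch of the longer motif at sites that recruit the dosage compensation complex, was in 11 members (1.72%), in 0.156% of either flank and in 0.0972% of X start windows. X distal summits held it in 2.66% and autosomal promoter summits in 0.802%. The word shares 5 of its letters with ACGCAG.

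Several genes carried more than 1 member. Of the 625 genes, 527 had 1 summit in their windows, 81 had 2 and 17 had 3 or more. The most, 5, were at nhr-1, which encodes a nuclear hormone receptor, with signals of 122, 289, 87.2, 68.2 and 104 at its annotated starts. C24A3.2, atg-2, for an autophagy protein, taf-3, for a subunit of the general factor TFIID, and rgs-2, a regulator of G protein signalling, had 4 each, with highest signals of 205, 176, 154 and 105.3. Windows of several starts of 1 gene were counted together, so a gene with more annotated starts could have a longer window. The part of this in the counts was not tested. Within the 640 members, 12 shared an interval with another, which left 634 distinct intervals.

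Gene lists were compiled by symbol, with earlier results of these data known. Each count is read against the 22.9% of X coding genes with a member peak. All 6 X genes of the list for mitochondria, protein synthesis and turnover had one, in the optimal list and in each replicate's own strongest peaks. Besides hsp-3 they were eef-1A.2, for translation elongation factor 1 alpha (signal 303, ranks 364, 505 and 602), and vha-15, for a subunit of the vacuolar proton pump (281, ranks 682, 642 and 284). The glycolytic genes gpd-2 and gpd-3 shared 1 peak (172, ranks 2014, 1853 and 1176), and gas-1, of respiratory complex I, had a signal of 116. Each of these peaks was among the strongest of all 3 replicates. Ribosomal protein genes on X, counted apart further on, had a peak at 1 of 2.

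Chromatin and transcription genes had peaks at 5 of 7 X members, and at 5, 5 and 4 in replicates 1, 2 and 3. The strongest were at his-24 (182, ranks 1361, 1991 and 1586), dpy-22, for the Mediator subunit MED12 (153, ranks 1389, 2219 and 5792), and lin-15B (123, ranks 2389, 2503 and 2671). utx-1 (113) and jmjd-3.1 (63.6), for histone demethylases, completed the list, while hpl-1, for an HP1 protein, and hda-4, for a histone deacetylase, had none, with the nearest X summit 6261 and 1119 bp from a start. The jmjd-3.1 peak ranked 9669 in replicate 3.

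Synaptic release genes had peaks at 7 of 11 X members, and at 8, 7 and 7 in the replicates. They were led by unc-18 (signal 195, 307 bp upstream, ranks 989, 1923 and 2107), aex-3, for an exchange factor of the vesicle GTPase RAB-3 (181, ranks 1870, 1075 and 1101), and sad-1, for a kinase of presynaptic assembly (158, ranks 2181, 1697 and 2837). Peaks also lay at dyn-1 (149), syd-2, for the active-zone scaffold liprin alpha (96.1), pkc-2 (62.5) and unc-2, for a presynaptic calcium channel (52.8). None lay at unc-10, for the active-zone protein RIM, at nlg-1, for neuroligin, at lin-2 or at cpx-2. The nearest X summits were 3769 bp from a start of unc-10 and 13092 bp from nlg-1.

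Other neuronal lists stayed closer to the 22.9% of all X genes. Ion channel and gap junction genes had peaks at 5 of 14, among them unc-1, for a stomatin-like protein that acts on gap junctions (217, ranks 945, 1148 and 1172), and the innexin gene unc-9 (186, ranks 1439, 1371 and 842). Another was at unc-58, for a channel of the twk family (180, ranks 1629, 1809 and 1420), where a tRNA gene lay within 100 bp. The innexin gene unc-7 and the potassium channel gene egl-36 had none within 24642 and 29018 bp. Axon guidance genes had peaks at 3 of 10, at unc-115, for an actin-binding protein (286, ranks 330, 1085 and 419), sax-3, for the Robo receptor (72.6), and unc-97 (64.9), but not at the netrin gene unc-6. Transmitter receptor genes had 2 of 9, at lev-9, needed to cluster acetylcholine receptors (149, a tRNA gene within 100 bp), and acr-12 (59.7), a receptor subunit gene used in GABA motor neurons, whose peak ranked 4140, 12703 and 3167.

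Amine and peptide receptor genes had peaks at 2 of 14, the peptide receptor gene npr-6 (90.2) and the dopamine receptor gene dop-1 (82.4). Neuronal transcription factor genes had 2 of 17, pag-3 (65.9) and the POU homeobox gene ceh-18 (53.3), with none at unc-3 or vab-3, whose nearest X summits were 19808 and 8678 bp away. Sensory genes had 1 of 11, mec-18 (52.6), whose peak ranked 4894, 8150 and 12286 and was among the strongest peaks of replicate 1 alone. These lists are samples of their classes. X genes outside them with a member peak, named after their values were seen, include ift-81, of cilium transport (213), the touch channel gene mec-4 (154) and the dopamine receptor gene dop-3 (61.4), and the touch genes mec-10 (146) and mec-2 (96.5) are counted among ion channels.

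Tissue lists outside the nervous system also varied. No peak lay at any of 11 intestinal genes in the optimal list or in the strongest peaks of a replicate. These included elt-2, for the GATA factor of the intestine, and the yolk genes vit-1 to vit-5, and the nearest X summit to elt-2 was 43441 bp away. Body wall muscle genes had 3 of 16, the actin gene act-4 (138), unc-97, for the attachment protein PINCH, and unc-98 (60.2), with none at the troponin I genes unc-27 and tni-1. Epidermal genes had 3 of 12, dpy-22, the junction gene ajm-1 (114.985, a tRNA gene within 100 bp) and the collagen gene dpy-8 (94.0). The sex and dosage list had 3 of 6 (3, 4 and 4 in the replicates). Its members were ceh-39, an X-linked homeobox gene whose dose is read in sex determination (215, ranks 1544, 564 and 1107), and sdc-2 (149) and sdc-1 (103), which act in loading the dosage compensation complex. xol-1 and sex-1, other genes of the same decision, had none.

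Signalling and timing genes had peaks at 30% and 33.3% of their X members, above the 22.9% of all X genes. The signalling counts varied between replicates. The list of TGF beta, insulin and Wnt signalling had 3 of 10, at sma-9, for a Schnurri-type factor (240, ranks 616, 1236 and 562), daf-3, for a Smad (194, ranks 1032, 2365 and 1534), and vang-1, for a planar polarity protein (94.9). Replicates 1, 2 and 3 alone gave 5, 6 and 3 of these 10, and 4, 5 and 5 of the 12 timing and vulval genes. Developmental timing and vulval genes had 4 of 12, led by lin-14, a heterochronic regulator of early larval fates (205, 969 bp upstream, ranks 699, 1496 and 1898), sel-12, for presenilin (162), and egl-17, for a fibroblast growth factor (148, a tRNA gene within 100 bp). Over all 15 lists, 46 of 154 X genes had a peak (29.9%; 48, 48 and 49 in the replicates). The lists differ in length from 6 to 17 X genes, 1 peak can serve several genes, and the counts were not tested.

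**Figure D5:**
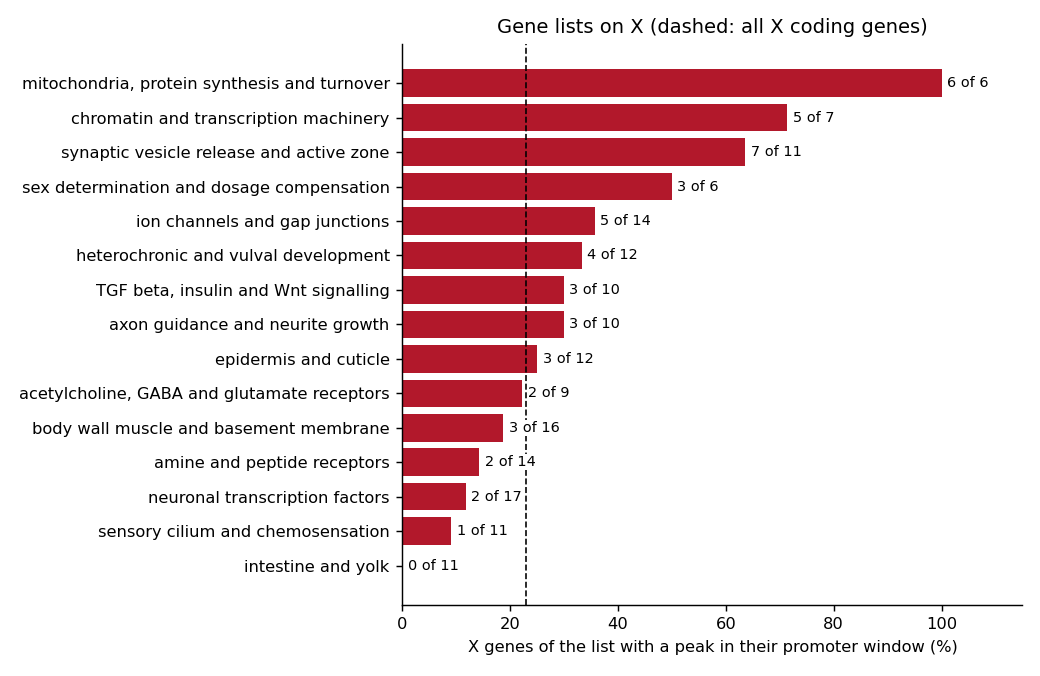
Share of the X genes of each of 15 lists with a member peak in their promoter window (%), with the count beside each bar; the dashed line is the 22.9% of all X coding genes. The lists run from 6 of 6 genes at the top to 0 of 11 at the bottom.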

How the data were processed

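The deposited files were narrowPeak lists in ce11, with 1 relaxed list per replicate (30000, 30000 and 25262 peaks), all called against 1 shared control alignment per the notes deposited with them, and an optimal list of peaks reproducible between replicates. The signal column holds the authors' caller value and the −log10 q column is the authors' as deposited, with 1 value throughout the optimal list, so it was not used to rank. The sources used here give no caller, aligner or depth, and no interval that needs depth was computed. Lists in ce10 were not used.

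Starts came from Ensembl release 115 (WBcel235), sequence from the RefSeq assembly. Shares, distances and GC content used each replicate's strongest peaks, as many as the optimal list holds. The exact two-sided sign-flip test ran over the 3 within-replicate differences, with 16 comparisons adjusted together, 7 of them added after the data were seen. Scripts used Python 3.11.15, NumPy 2.4.6, pandas 2.3.3 and SciPy 1.17.1 and were tested on simulated data. Members and gene lists were chosen with earlier results of these data known. Named genes are those of the 15 strongest members, the 5 genes with most summits, up to 3 with and the first 2 without a peak per list and those at the window ends; other genes were named after their values were seen. Of the list symbols, 6 matched no coding gene.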

Additional observations from a re-analysis of the deposited data

How the results depend on the processing

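Of 110 values recomputed with another window, start set, number of peaks, overlap, GC window or replicate left out, 5 changed sign and 2 counts of members moved by more than 1.5 times. No p could reach 0.05 under any setting, so the p-values show nothing about stability. The difference in coverage between X promoter and autosomal promoter peaks had no stable sign: it was 0.191 points with 1 start per gene, 2.85 with 80% overlap and 0.138 with a narrower window, 1000 bp before to 200 bp after the start, and ran from -1.52 to 0.559 when a replicate was left out; the cause was not tested. The central GC difference, chosen after the profile was seen, ran from -0.147 (without replicate 3) to 0.341 when a replicate was left out. The GC difference was 0.495 points within 25 bp and 3.41 within 100 bp of the summit. Restricting each list to its stronger 50% moved several differences by more than 1.5 times, with the values given beside those results; coverage against autosomal promoter peaks was then -2.36 points and the central GC difference 0.374. The number of members was 324 in the stronger part of the optimal list, by construction, and 426 to 475 when it had to be matched in the strongest peaks of 2 replicates, a rule that also drops wide peaks. The depth of sequencing is unknown, so a missing peak does not show that the site was unbound. With 3 samples, 1 group and no untagged sample analysed here, no comparison could pass 0.05.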

Other observations

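Gene families on X, counted by symbol, add to the lists above and are given as counts beside the 22.9% of X coding genes with a peak. Genes named nhr, which encode receptors of the class UNC-55 belongs to, had peaks at 7 of 23 X members (6, 7 and 8 in replicates 1, 2 and 3). The strongest were at nhr-1 (289, ranks 416, 1141 and 200), nhr-48 (237, ranks 900, 744 and 969) and nhr-40 (223, ranks 960, 800 and 1031), and that of nhr-255 (139) is the one that also lies in the window of the chemoreceptor gene srg-64. Genes named unc had 9 of 16 (10, 7 and 9 in the replicates), and homeobox genes named ceh 4 of 18. Cuticle collagen genes had 1 of 27 (col-185, 113), FMRFamide-like peptide genes 1 of 13 (flp-20, 122, ranks 1415, 4252 and 13902) and neuropeptide-like protein genes 2 of 19 (nlp-76, 138, and nlp-7, 54.5). Chemoreceptor genes had 3 of 28, and the peaks of 2 of them, srd-43 (264) and srg-64 (139), had a tRNA gene within 100 bp, as had those of col-185 and nlp-76. Of 2 ribosomal protein genes on X, rpl-11.2 had a peak and rpl-25.1 had none within 3091 bp. Genes known only by a sequence name had 239 of 1380 (17.3%).

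Along X, the share of coding genes with a member peak was taken in 10 stretches of equal length. It was lowest, 14.4% (47 of 327 genes), in stretch 7 and highest, 30.7% (87 of 283), in stretch 9. Median signal by stretch lay between 94.9 and 143, with the highest value in stretch 1, which held 52 members.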
